A study of Rattus norvegicus with 23 samples.

Results

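Long-term FKBP1b overexpression was compared with the aged vector control in dorsal hippocampus, on the 6 arrays of the LT group and the 5 arrays of the AC group, 11 of the 23 arrays of the series. The arrays were chosen by their titles alone. Each array held dorsal hippocampal RNA of 1 male F344 rat, and all 11 rats were assayed at 21 months of age after training in the Morris water maze. LT rats carried an adeno-associated virus (AAV2/9) with rat Fkbp1b behind the CaMKII 0.4 promoter, which drives expression in excitatory neurons, injected into hippocampal CA1. AC rats carried the same vector with eGFP, a fluorescent reporter, in place of Fkbp1b. Injections were bilateral, 2 µl per side, at 1.86e13 genome copies per ml for eGFP and 1.99e12 for FKBP1b. The sources differ on when the vectors were given. The sample labels put LT at an injection at 12 months and a 9-month exposure and AC at an injection at 18 months and a 3-month exposure, whereas the series text puts both at 13 months. Transgene, titer and, by the labels, time since injection therefore differ together between LT and AC and cannot be told apart. The rats arrayed in LT and ST, but not those in AC, were the ones whose FKBP1b expression exceeded the median of their group. The other 12 arrays, 6 from short-term FKBP1b rats (ST, also 21 months, FKBP1b vector with a 3-month exposure by the labels) and 6 from young control rats (YC, 5 to 6 months, no vector), share the estimate of variance and are given only for their levels.

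FKBP1b, also called FKBP12.6, is a small immunophilin that binds ryanodine receptors, the channels through which the endoplasmic reticulum releases calcium, and keeps them from leaking. In hippocampal pyramidal neurons less of it goes with larger intracellular calcium responses and a larger afterhyperpolarization, both known features of aged rat hippocampus. The comparison asks which transcripts differ in tissue where the protein was raised from midlife.

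The measurement is a Robust Multiarray Average (RMA) signal per probe set, on a linear scale, from an Affymetrix Rat Gene 1.0 ST array. A probe set was tested where the annotation gives 1 gene symbol and the signal was at least 40 on at least 4 arrays, which left 13339 probe sets for 12604 genes. Log2 signals were fitted with limma, and a gene is said to have risen or fallen where the p adjusted over all tested probe sets was under 0.05. Neuronal, astrocytic, oligodendrocyte and microglial markers were all detected in LT and AC, as in hippocampal tissue, with mean signals from 2010 to 11000 for the 4 neuronal markers. In such tissue fewer cells of a type and less RNA per cell cannot be told apart. Choroid plexus genes marked 4 of the 11 arrays (AC replicates 3 and 4, LT replicates 2 and 5), on which Ttr, the transthyretin gene, had signals from 14512 to 16411 against 363 to 5767 on the other 7. RNA integrity numbers were 8.9 to 9.5 in LT and 8.9 to 9.8 in AC, a difference of -0.147 between the means (exact permutation test, two-sided, p = 0.442).

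LT differed from AC in 10 genes, of which 7 rose and 3 fell, 0.075% of the probe sets tested. Higher in LT were Fkbp1b, the histamine H1 receptor gene Hrh1, the lipocalin genes Lcn1 and Lcn9, the receptor tyrosine kinase gene Erbb2, the transcription factor gene Hand2 and the keratin gene Krt9. Lower in LT were Osmr, the oncostatin M receptor gene, Pecam1, an adhesion molecule gene of endothelium and blood cells, and Fads3, a member of the fatty acid desaturase family. Apart from Fkbp1b, these were changes of 1.2-fold to 1.34-fold upward and down to 0.674 of the AC level. At an adjusted p under 0.1 the number was 44, and at an unadjusted p under 0.05 it was 804 higher (6.03%) and 879 lower (6.59%). The rule in the methods, an analysis of variance over the 4 groups followed by Fisher's LSD with no adjustment, gave 561 higher (4.21%) and 654 lower (4.9%). Of all 12604 genes, 6017 (47.7%) were above AC at any p, the share to set beside the list counts below.

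**Figure D1:**
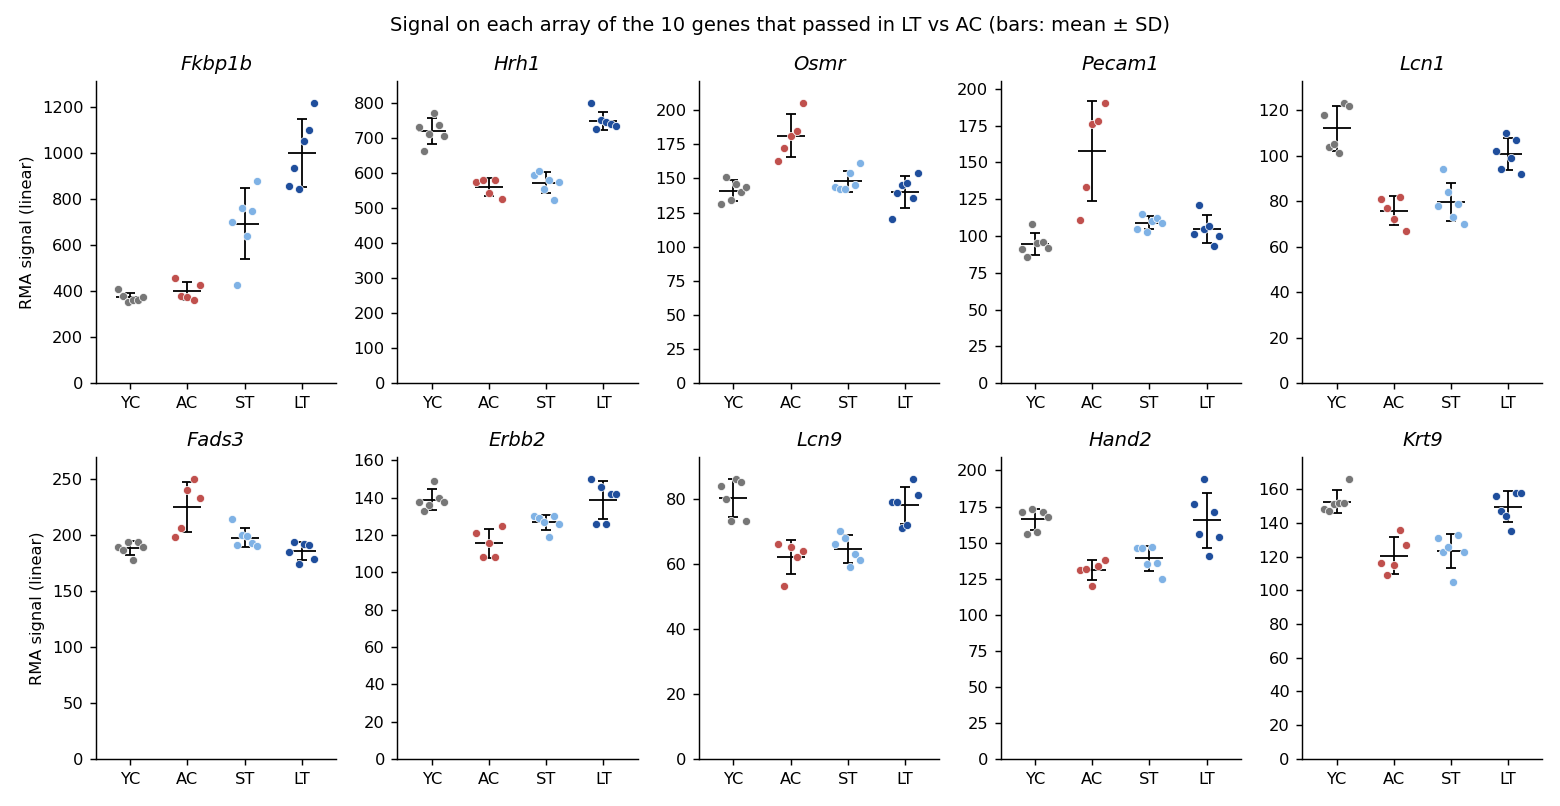
Linear RMA signal (vertical axes from 0) of the 10 genes that passed in LT vs AC on every array, by group (YC, AC, ST, LT), with points for arrays and bars for mean ± SD. The LT points lie clear of the AC points for every gene except Pecam1 and Krt9. ST points lie near AC for Hrh1, Lcn1, Lcn9 and Krt9, and mostly nearer to LT for Osmr, Pecam1 and Fads3.

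The promoters of 4 of these genes are given for reference, those of Hrh1, the gene with the smallest p among those not delivered by the vector, of the lipocalins Lcn1 and Lcn9, which moved in the same direction, and of Osmr, the lower gene with the smallest p. Each is the run of 250 bases that ends just before the annotated start, 5′ to 3′ on the strand of the gene, from RefSeq on GRCr8. Capitals mark matches on either strand to GGAAG, the core bound by ETS factors, and to TGANTCA, a looser form of the AP-1 site with any base at N.
Hrh1 (chr4:149120261-149120510, plus strand): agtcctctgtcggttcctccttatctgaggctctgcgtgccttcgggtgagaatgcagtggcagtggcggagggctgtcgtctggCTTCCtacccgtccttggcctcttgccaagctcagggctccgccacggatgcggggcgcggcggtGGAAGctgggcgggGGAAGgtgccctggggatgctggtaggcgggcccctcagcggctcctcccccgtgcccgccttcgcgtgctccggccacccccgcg
Lcn1 (chr3:29930693-29930942, plus strand): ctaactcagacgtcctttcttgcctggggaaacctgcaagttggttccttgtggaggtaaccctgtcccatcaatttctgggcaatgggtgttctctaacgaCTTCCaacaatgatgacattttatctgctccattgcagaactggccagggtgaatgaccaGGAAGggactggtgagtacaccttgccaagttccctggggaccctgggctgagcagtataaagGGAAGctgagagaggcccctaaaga
Lcn9 (chr3:29042291-29042540, plus strand): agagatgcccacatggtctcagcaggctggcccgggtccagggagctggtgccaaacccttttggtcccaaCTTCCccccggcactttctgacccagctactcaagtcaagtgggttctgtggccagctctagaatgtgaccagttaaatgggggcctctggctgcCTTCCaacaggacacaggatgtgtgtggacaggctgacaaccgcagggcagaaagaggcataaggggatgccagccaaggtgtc
Osmr (chr2:57688562-57688811, minus strand): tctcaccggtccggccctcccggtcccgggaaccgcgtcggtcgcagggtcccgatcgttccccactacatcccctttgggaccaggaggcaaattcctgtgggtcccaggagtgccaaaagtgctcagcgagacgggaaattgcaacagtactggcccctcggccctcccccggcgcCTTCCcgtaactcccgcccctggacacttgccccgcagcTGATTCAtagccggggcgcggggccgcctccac
Of all 33469 promoters in the table, 63.3% hold GGAAG and 6.3% hold TGANTCA within the same length. Of the 9 genes that passed besides Fkbp1b, 8 had a promoter in the table, of which 6 held GGAAG and 1, Osmr, held TGANTCA, as TGATTCA. Whether AP-1 binds there was not tested. The Lcn1 and Lcn9 starts lie 888 kb apart on chromosome 3.

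Fkbp1b itself had the largest fold change among all tested probe sets. The platform annotation lists 1 probe set for it (10940524), although the study states that this array type lacks any for FKBP1b, so the identity of the signal rests on that annotation. Whether its probes lie within the sequence the vector carried was not tested. Signals in AC were 458, 379, 374, 364 and 428, and in LT they ran from 843 to 1217 with a median of 994.5. Every LT array was above every AC array. The difference was 1.31 on the log2 scale (SE 0.13, adjusted p = 9.0e-06 from limma), or 2.49-fold. LT rats, but not AC rats, were chosen for FKBP1b expression above their group median. The separation, fold change and p for Fkbp1b therefore partly reflect that choice. The ST mean lay between, at 694.2 ± 153.0 (SD, n = 6), with ST replicate 2, at 427, inside the AC range and ST replicate 6, at 881, inside the LT range. The LT minus ST difference of 0.55 (SE 0.12) had an adjusted p of 0.12. None of the other FKBP genes passed. Of 14 FKBP family genes tested 7 were above AC and 7 below, with a median log2 fold change of 0.003, and Fkbp1b was the only member at an unadjusted p under 0.05. Fkbp1a, the gene of the close homolog FKBP12, was at 0.04 (SE 0.03, adjusted p = 0.63).

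Hrh1 encodes the Gq-coupled histamine receptor that raises intracellular calcium in neurons, astrocytes and endothelium. Its signal (probe set 10857947) was 573, 580, 542, 581 and 525 in AC and 724 to 798, median 742, in LT. No LT array came within the AC range. The log2 fold change was 0.42 (SE 0.04, adjusted p = 9.0e-06). Hrh1 was also the only gene at an adjusted p under 0.05 between LT and ST (0.0075% of probe sets), where the difference was 0.39 (SE 0.04, adjusted p = 2.8e-05). ST signals ran from 522 to 605 and overlapped AC, and YC signals ran from 661 to 771 and overlapped LT. Among 9 histamine signaling genes the median log2 fold change was 0.17, against -0.004 over all 12604 genes. Hdc, which makes histamine, was at 0.17 (adjusted p = 0.19), and the monoamine transporters Slc22a3 and Slc18a2 were at 0.20 and 0.38 (adjusted p = 0.28 and 0.38). The other receptor genes were below AC, with Hrh3 at -0.24 (adjusted p = 0.41) and Hrh2 at -0.09 (adjusted p = 0.51), so that Hrh1 alone of the list passed.

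Both lipocalin genes that rose encode small secreted carriers of hydrophobic molecules, Lcn1 known from tears and Lcn9 from the epididymis, and both had low signals here. Lcn1 (probe set 10834470) read 81, 77, 72, 82 and 67 in AC and 92 to 110, median 100.5, in LT, a log2 fold change of 0.41 (SE 0.07, adjusted p = 0.039). Lcn9 (probe set 10834367) read 66, 53, 65, 62 and 64 in AC and 71 to 86, median 79, in LT, a log2 fold change of 0.33 (SE 0.06, adjusted p = 0.047). In neither gene did LT and AC overlap. Of 11 lipocalin genes tested 9 were above AC, with a median of 0.10. The lipocalins with known roles in brain did not pass and lay on both sides, Apod, which glia make, at 0.12 (adjusted p = 0.45), Lcn2, an acute-phase lipocalin of reactive astrocytes, at -0.22 (adjusted p = 0.49), and Ptgds, the prostaglandin D synthase of meninges and choroid plexus, at -0.22 (adjusted p = 0.57).

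Erbb2 (probe set 10737962), the co-receptor through which neuregulins signal with its relatives, read 121, 108, 116, 108 and 125 in AC and 126 to 150, median 142, in LT. The lowest LT array was thus 1 unit above the highest AC array. The log2 fold change was 0.26 (SE 0.05, adjusted p = 0.040). Among 17 ErbB receptors and ligands 10 were above AC with a median of 0.02. Egfr was at -0.09 (adjusted p = 0.59) and Erbb4 at -0.02 (adjusted p = 0.91), and the ligand Areg, amphiregulin, was at 0.15 (adjusted p = 0.27).

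Hand2 (probe set 10791504), a basic helix-loop-helix factor of heart, limb and sympathetic neuron development, read 131, 132, 120, 134 and 138 in AC and 141 to 194, median 163.5, in LT. The groups did not overlap, though LT varied more, with an SD of 19.0 against 6.7. Its log2 fold change was 0.33 (SE 0.06, adjusted p = 0.047). Of 13 HAND, TWIST and ID class genes 9 were above AC, with a median of 0.05, moving to 0.02 when AC replicate 5 was left out and to 0.11 on leaving out AC replicate 4 or LT replicate 1. Id4, an inhibitor of such factors, was at 0.22 (adjusted p = 0.17), Twist2 at 0.16 (adjusted p = 0.33) and Hand1 at 0.15 (adjusted p = 0.39).

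Krt9 (probe set 10747269), a keratin of palm and sole skin, was the keratin that passed. Its signals were 116, 109, 115, 136 and 127 in AC and 135 to 158, median 151.5, in LT, so that LT replicate 4 lay below AC replicate 4. The log2 fold change was 0.31 (SE 0.06, adjusted p = 0.047). Most other keratins were above AC as well. Of 40 keratin genes tested 33 were above AC, with a median of 0.11, and 13 of 40 were higher at an unadjusted p under 0.05, a threshold that 6.01% of all genes met in that direction, with none lower. Krt17 was at 0.33 (adjusted p = 0.053), Krt33b at 0.41 (adjusted p = 0.16) and Krt83, a hair keratin, at 0.51 (adjusted p = 0.22). The keratin count at that unadjusted p stayed between 11 and 17 when each array was left out in turn, in fits where 4.9% to 8.35% of all genes were higher at it. A list of 39 cytoskeletal genes, which shares keratins with it and which the study picked on these same samples, had 33 of its 34 tested genes above AC and 24 at an unadjusted p under 0.05, and is no independent evidence.

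Of the genes that fell, Osmr had the smallest p. Its probe set is 10821698. It encodes the receptor subunit that pairs with gp130 to bind oncostatin M, and is expressed by astrocytes and endothelium. AC signals were 163, 172, 181, 185 and 205, and LT signals ran from 120 to 154 with a median of 142. All LT arrays were below all AC arrays. The log2 fold change was -0.37 (SE 0.06, adjusted p = 0.015). Without LT replicate 5 the adjusted p was 0.058. ST signals, at 142 to 161, were also all below AC, and YC signals ran from 131 to 151. The rest of the pathway lay on both sides of AC. Of 23 genes of oncostatin M and gp130 signaling 11 were above AC and 12 below, with a median of -0.009. Osm, the ligand, was at 0.20 (adjusted p = 0.43), Lifr at -0.07 (adjusted p = 0.55), Stat3 at -0.07 (adjusted p = 0.57) and Socs3, a feedback inhibitor, at -0.12 (adjusted p = 0.60).

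Fads3 (probe set 10713844), which desaturates sphingoid bases, read 198, 206, 240, 250 and 233 in AC and 174 to 194, median 188, in LT. The groups did not overlap, and AC replicates 1 and 2 lay within 12 units of the highest LT array. Its log2 fold change was -0.27 (SE 0.05, adjusted p = 0.040). ST signals ran from 190 to 214 and overlapped both groups, and YC signals ran from 178 to 194. Fads2, the delta-6 desaturase gene, was at -0.13 (adjusted p = 0.30), whereas Fads1 was at 0.03 (adjusted p = 0.85) and Scd2, the stearoyl-CoA desaturase of brain, at 0.10 (adjusted p = 0.22). The median over 17 desaturase and elongase genes was -0.001.

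Pecam1 (CD31, probe set 10940659) was the third gene that fell. AC signals were 111, 133, 176, 178 and 190, and LT signals ran from 93 to 121 with a median of 103, so that LT replicate 2 was above AC replicate 1. The log2 fold change was -0.57 (SE 0.10, adjusted p = 0.039). ST signals, at 103 to 115, lay within the LT range, and YC signals ran from 86 to 108. Most endothelial genes were below AC too. Of 37 tested 30 were below AC, with a median log2 fold change of -0.14 against -0.004 over all genes, and 15 of 37 were lower at an unadjusted p under 0.05, where 6.71% of all genes met that threshold in that direction. None was higher at it. Besides Pecam1 no gene of the list passed after adjustment. Lowest was Angpt2, the vessel-destabilizing ligand of the Tie2 receptor, at -0.84 (SE 0.21, adjusted p = 0.12). Ramp2, a partner of the adrenomedullin receptor, was at -0.36 (adjusted p = 0.075), Esam, a junctional adhesion molecule, at -0.32 (adjusted p = 0.053), and Cldn5, the main claudin of the blood-brain barrier, at -0.30 (adjusted p = 0.14). The receptors Kdr, Flt1 and Tek and the transcription factor Erg were at -0.35, -0.23, -0.17 and -0.26. Barrier transporters were mostly below AC, with the efflux pump Abcb1a at -0.19 (adjusted p = 0.17) and the glucose transporter Slc2a1 at -0.11 (adjusted p = 0.59). Slco1a4, Mfsd2a and Slco1c1 were at -0.094, -0.065 and -0.049 (adjusted p = 0.53, 0.79 and 0.85). Abcg2 was above AC, at 0.19 (adjusted p = 0.57).

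The endothelial genes differed among the AC arrays. The mean of the gene-centered log2 signals of the list was -0.003, 0.008, 0.274, 0.283 and 0.184 on AC replicates 1 to 5, and -0.060 to 0.066 on the LT arrays. AC replicates 1 and 2 thus fell within the LT range and the other AC arrays above it, while ST arrays ran from -0.060 to 0.002. Angpt2 read 73, 86, 211, 221 and 98 in AC and 53 to 92, median 69, in LT. Fn1, fibronectin, a plasma and vessel-wall protein and the gene with the fifth lowest fold change, read 352, 370, 825, 770 and 608 in AC and 295 to 394, median 328.5, in LT (log2 fold change -0.71, SE 0.16, adjusted p = 0.085). In both genes AC replicates 1 and 2 overlapped LT.

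Hemoglobin signals were high on some of these arrays. Hbb, a beta-globin gene and marker of red cells, read 212, 167, 1479, 1450 and 216 in AC and 178 to 258, median 202, in LT, and Hbb-b1 read 60, 49, 433, 476 and 68 in AC and 49 to 66, median 62.5, in LT. Their log2 fold changes, -1.11 (adjusted p = 0.29) and -1.17 (adjusted p = 0.31), were the lowest of all, and they rest on AC replicates 3 and 4, without which they were 0.05 and 0.02. Without those arrays the endothelial median was -0.05, with 26 of 37 genes below AC and 9 lower at an unadjusted p under 0.05, as were 9.89% of all genes in that fit. With all 4 choroid plexus arrays left out it was -0.08, with 28 below and 9 lower at that p, against 8.13% of all genes. LT replicates 2 and 5, also high in choroid plexus genes, had Hbb signals of 211 and 200. Of the 5 erythrocyte genes tested, 4 were below AC. The part of vessel or blood content in the endothelial values was not tested.

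**Figure D2:**
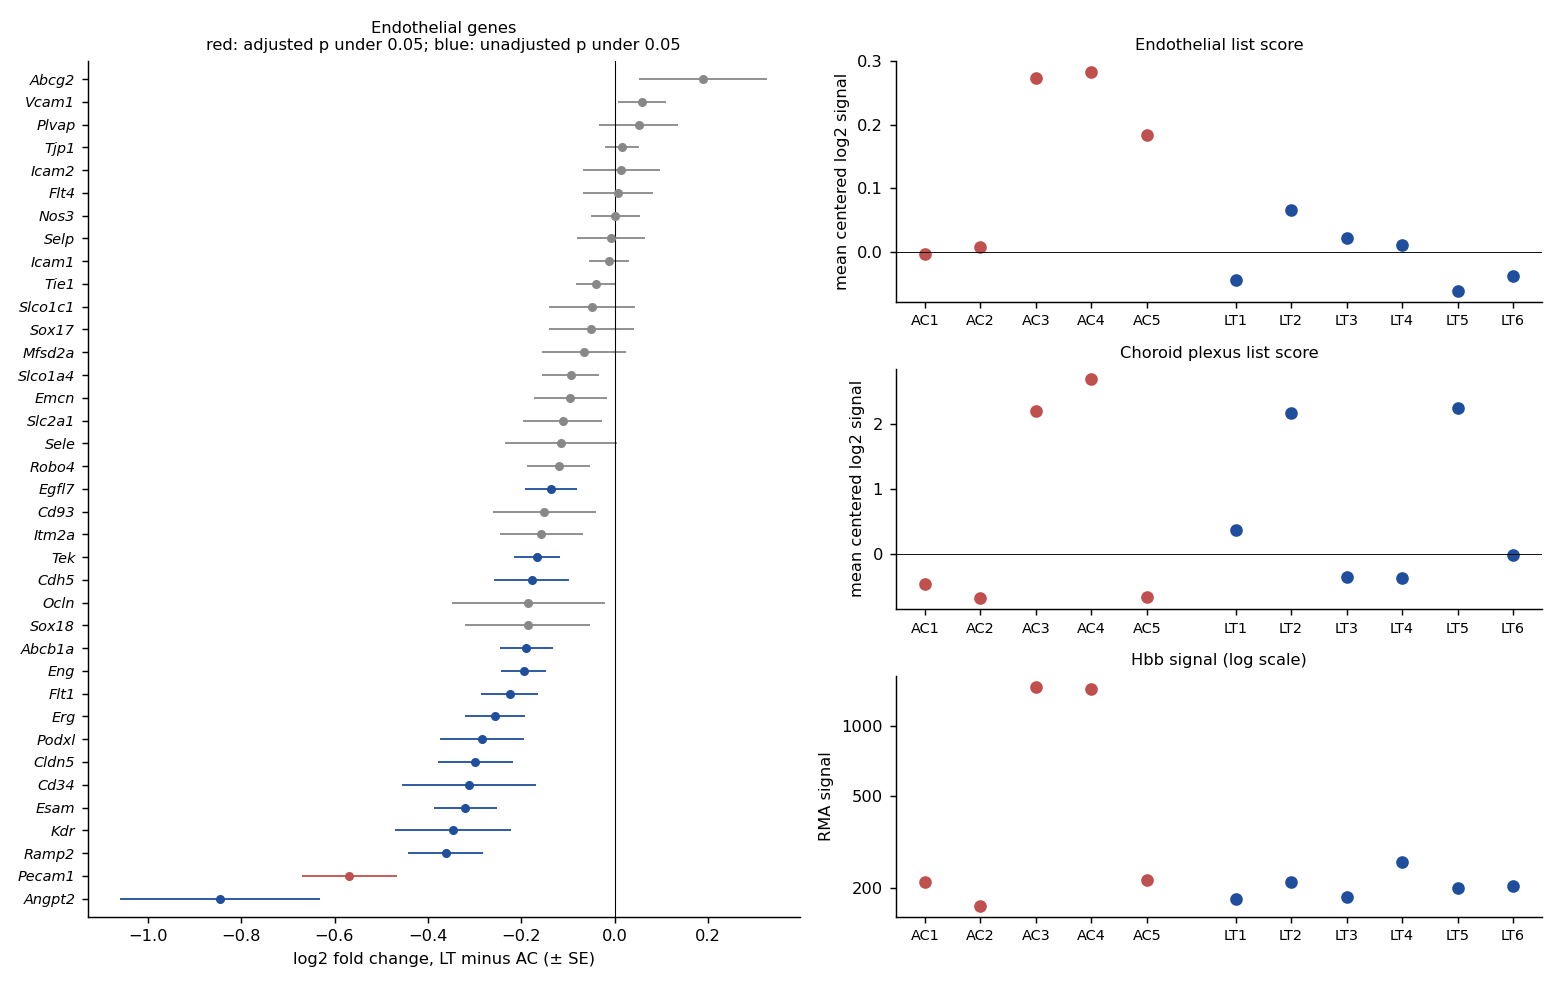
Left, log2 fold change of LT minus AC with SE for 37 endothelial genes, from Angpt2 at -0.84 to Abcg2 at 0.19; right, for each AC (red) and LT (blue) array, the endothelial and choroid plexus list scores (mean gene-centered log2 signal) and the linear Hbb signal on a log axis. AC replicates 3, 4 and 5 are above all LT arrays in the endothelial score, AC replicates 3 and 4 also in Hbb, and the choroid plexus score is high on arrays of both groups.

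Of the 10 genes, Fkbp1b and Hrh1 kept an adjusted p under 0.05 when each of the 23 arrays was left out in turn, at up to 8.2e-05. Osmr lost it without LT replicate 5 only. Pecam1 (adjusted p up to 0.11), Lcn1 (0.11), Fads3 (0.11), Erbb2 (0.12), Lcn9 (0.12), Hand2 (0.13) and Krt9 (0.12) lost it without 11, 9, 13, 13, 17, 19 and 17 of the arrays. Among the arrays compared, those without which each of these 7 genes was lost were AC replicate 3 and LT replicates 1, 3 and 5. All log2 fold changes of the 10 genes kept their sign. The number of genes that passed lay between 2, without LT replicate 5, and 104, without AC replicate 1, which held all 10.

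Just short of the threshold, at adjusted p from 0.053 to 0.085, stood 8 genes above AC and 12 below that come next by p. The higher ones were Klk1, tissue kallikrein, which releases kinins, at 0.35, Ptma, prothymosin alpha, at 0.12, Pbp2 at 0.36, Siglec1, the macrophage receptor sialoadhesin, at 0.34, Bcl2l15 at 0.41, Tns4, a tensin of focal adhesions, at 0.26, Nkx1-1, a homeobox gene, at 0.24, and Krt17. Of these 8 all but Klk1 had every LT array above every AC array, as did 0.487% of all probe sets. The 8 were picked by their p on these same arrays, so this separation is no further evidence. The value of Ptma came from the brightest of its probe sets, and the other 2 were at 0.02 and -0.02. Their signals were mostly low, Tns4 at 66.2 ± 4.4 (SD, n = 6) in LT and 55.4 ± 3.8 (SD, n = 5) in AC.

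The lower ones were Alg8, an enzyme of N-glycan assembly, at -0.19, Slc25a24, a calcium-regulated ATP-Mg carrier of mitochondria, at -0.24, Mrc1, the mannose receptor of perivascular macrophages, at -0.32, Abcb6, a porphyrin transporter, at -0.18, Efemp2, fibulin-4 of elastic fibers, at -0.16, Cspp1, a centrosome and cilium protein, at -0.56, Pomp, the proteasome maturation factor, at -0.21, Lamc1, laminin gamma-1 of basement membranes, at -0.21, Gbp2, an interferon-induced guanylate binding protein, at -0.54, and Esam, Ramp2 and Fn1. Of these 12, 8 had every LT array below every AC array, as did 0.54% of all probe sets, and Esam, Ramp2, Lamc1 and Fn1 overlapped. These too were picked by their p on the same arrays, so the separation is no further evidence. Mrc1 read 141, 126, 154, 129 and 132 in AC and 97 to 121, median 108.5, in LT. Second probe sets of Slc25a24 and Cspp1 were at -0.03 and -0.10.

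The other genes among the 5 largest fold changes in each direction did not pass. Ttr was at 1.13 (SE 0.89, adjusted p = 0.60), with signals of 694, 363, 14549, 16411 and 514 in AC and 1352 to 14792, median 4392.5, in LT. Zic1, a zinc finger gene of midline structures, was at 0.72 (adjusted p = 0.49), and Nts, neurotensin, at 0.56 (adjusted p = 0.45). Rtp3, a receptor transporter protein gene, was at 0.62 (adjusted p = 0.084), reading 30 to 55 in AC and 62 to 80 in LT, without overlap. Jchain, the joining chain of plasma cell immunoglobulins, was at -1.09 (adjusted p = 0.22), with AC replicates 2 and 3 at 116 and 331, the other AC arrays at 34 to 45 and LT at 30 to 42.

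Calcium genes, the known field of FKBP1b action, lay on both sides of AC, and none passed. Of 24 genes of intracellular calcium release and stores 11 were above AC and 13 below, with a median of -0.008. Nearest were Itpr3, an IP3 receptor, at 0.13 (adjusted p = 0.18), Trdn, triadin, a partner of ryanodine receptors, at 0.27 (adjusted p = 0.23), and Ryr3 at -0.12 (adjusted p = 0.38). The 22 voltage-gated calcium channel genes had a median of -0.01. Among 27 calmodulin, calcineurin, calpain and CaM kinase genes the calcineurin subunits Ppp3cb and Ppp3r1 were at 0.12 and 0.13 (adjusted p = 0.18 and 0.31) and Camk1 and Capn1 at -0.21 and -0.14 (adjusted p = 0.13 and 0.15). Of 11 afterhyperpolarization potassium channel genes Kcnmb2, a beta subunit of the BK channel, was lowest, at -0.31 (adjusted p = 0.18). The study picked a list of 11 calcium genes on these samples, 5 as raised by FKBP1b and 6 as lowered. It had the same split here, 5 above AC and 6 below. Of these, 3 and 5 were at an unadjusted p under 0.05, against 6.01% higher and 6.71% lower over all genes. That list is no independent evidence either.

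Neuronal genes lay near 0. The median was -0.03 over 20 general neuronal genes, -0.005 over 16 of hippocampal excitatory neurons, 0.003 over 17 of GABAergic interneurons, -0.02 over 38 of glutamate receptors and postsynaptic density and -0.01 over 35 of synaptic vesicle release. Activity-induced genes were above AC in 24 of 36, with a median of 0.07, which was 0.01 without AC replicate 5. They included Fos at 0.32 (adjusted p = 0.33), Bdnf at 0.21 (adjusted p = 0.39) and Klf10 at -0.26 (adjusted p = 0.12). Ribosomal proteins (68 genes, median 0.000), the respiratory chain (63, -0.01), heat shock proteins (33, -0.02), cholesterol genes (23, -0.007) and lysosomal genes (39, -0.03) had medians as near to 0.

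Microglial and complement genes were mostly below AC, and 1 AC array stood apart in them. Of 36 microglial genes 31 were below AC, with a median of -0.14, and 12 of 13 complement genes were below, with a median of -0.18. The microglial score was 0.710 on AC replicate 5 against 0.027 to 0.054 on the other AC arrays and -0.033 to 0.192 on LT arrays. Without that array the microglial median was 0.007, with 17 of 36 genes below AC, and the complement median -0.02. C1qb was at -0.32 (adjusted p = 0.48), Itgam at -0.45 (adjusted p = 0.37) and Clec7a, a marker of activated microglia, at -0.49 (adjusted p = 0.33). The same array had the lowest myelin score, -0.413, against -0.085 to 0.100 on the other AC arrays. Of 22 myelin and oligodendrocyte genes 21 were above AC with a median of 0.12, which was 0.03 without it, and Mbp, myelin basic protein, was at 0.12 (adjusted p = 0.21) by its brighter probe set and at 0.04 (adjusted p = 0.61) by the other.

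Interferon-induced genes were below AC in 30 of 38, with a median of -0.08, which ranged from -0.10 to -0.07 when single arrays were left out. Oas1a was at -0.34 (adjusted p = 0.11), Ifitm3 at -0.47 (adjusted p = 0.15) and Ifit2 at -0.21 (adjusted p = 0.24), and 10 of 38 were lower at an unadjusted p under 0.05, against 6.71% of all genes. The score of the list was -0.031, 0.004, 0.125, 0.214 and 0.233 on AC replicates 1 to 5 and -0.079 to 0.058 on LT arrays, so that AC replicates 1 and 2 lay within the LT range and the other AC arrays above it. Without AC replicates 3 and 4 the median was -0.05 and 4 of 38 were lower at that p, as were 9.89% of all genes in that fit. Meningeal fibroblast genes (16, median -0.14) varied with the choroid plexus arrays. Their scores were highest, at 0.489 to 0.650, on the 4 arrays marked by choroid plexus genes. The meningeal median was 0.004 without AC replicates 3 and 4, in a fit that kept the marked LT replicates 2 and 5. On the unmarked arrays the meningeal scores were 0.030, 0.016 and 0.231 in AC and -0.152 to -0.032 in LT, without overlap. Choroid plexus genes themselves had a median of -0.008, with the marked arrays in both groups. It ranged from -0.32 to 0.44 when single arrays were left out. On the unmarked arrays the choroid plexus scores were -0.452, -0.672 and -0.648 in AC and -0.36 to 0.367 in LT, also without overlap. Medians were -0.008 for astrocytes, 0.01 for pericytes and smooth muscle, 0.03 for oligodendrocyte precursors, -0.04 for ependyma, 0.06 for collagens and laminins (0.03 without AC replicate 2) and -0.03 for metalloproteinases. Those of lymphocytes and antigen presentation, -0.07 and -0.05, were 0.06 and 0.01 without AC replicates 3 and 4.

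**Figure D3:**
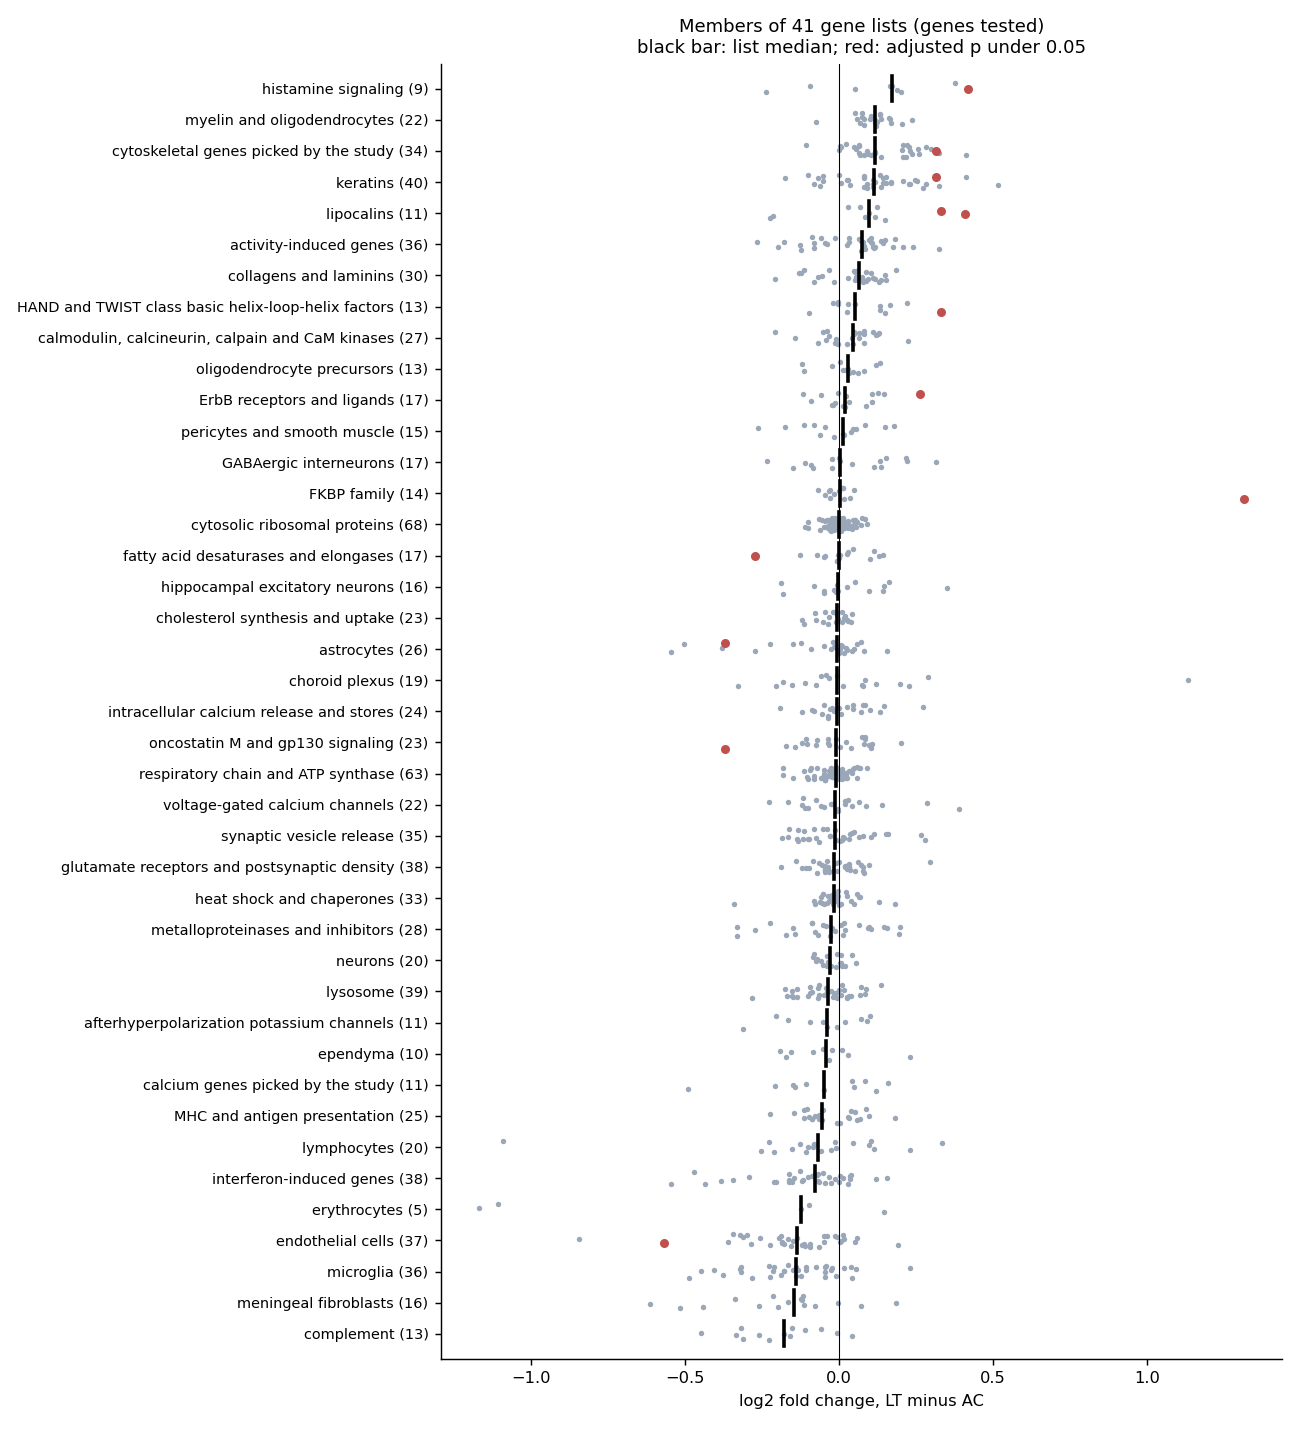
Log2 fold change of LT minus AC (horizontal axis) for each tested member of 41 gene lists, with the number of genes in parentheses, the list median as a black bar and members at an adjusted p under 0.05 in red. Medians run from -0.18 (complement) to 0.17 (histamine signaling), and Fkbp1b stands alone at 1.31.

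More probe sets passed among those for which the annotation gives no gene, and how many transcripts they stand for was not tested. When all 23559 probe sets with adequate signal were tested together, 82 of the 10049 with no symbol passed in LT vs AC, 75 higher (0.746%) and 7 lower (0.0697%), against 23 (0.172%) and 13 (0.0975%) of the 13339 with 1 symbol. All 10 genes above were among the latter. The 75 had log2 fold changes from 0.11 to 1.04, with a median of 0.32. The median signal over them was 227 to 260 on AC arrays and 298 to 323 on LT arrays, the values that chose them. It was 229 to 249 on ST arrays and 284 to 322 on YC arrays, which entered the choice only through the estimate of variance and the signal minimum. Probe set 10722465 had the smallest p, at 3079 to 3490 in AC and 3860 to 4097 in LT (log2 fold change 0.30, SE 0.03, adjusted p = 5.8e-05), with ST at 3140 to 3432 and YC at 3693 to 3957. Next came 10883705, at 294.2 ± 17.2 (SD, n = 5) in AC and 417.0 ± 29.6 (SD, n = 6) in LT. Among the 7 lower, 10700896 read 82 to 105 in AC and 45 to 71 in LT (log2 fold change -0.64, SE 0.13, adjusted p = 0.023). Leaving out single LT or AC arrays gave between 23 such probe sets, without AC replicate 3, and 203, without AC replicate 1. With the 4 choroid plexus arrays left out 8 passed.

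**Figure D4:**
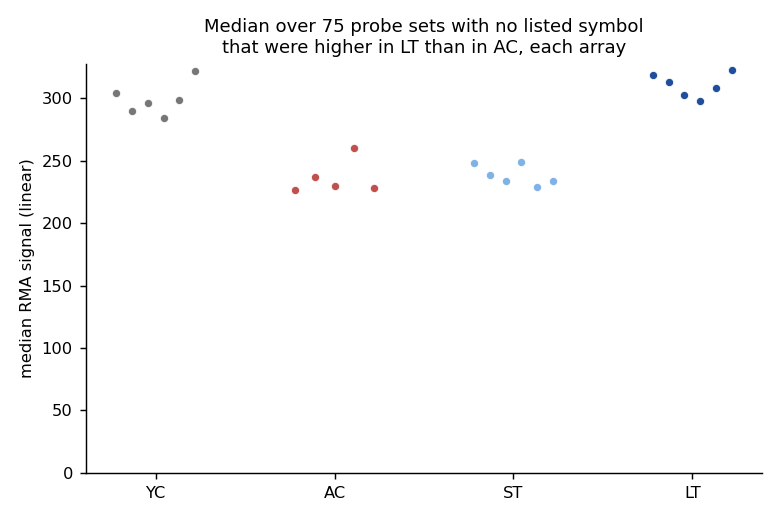
Median linear RMA signal, on each array of the 4 groups, over the 75 probe sets with no listed symbol that were higher in LT than in AC; the vertical axis starts at 0. LT arrays (298 to 323) and YC arrays (284 to 322) lie above AC (227 to 260) and ST (229 to 249), and the LT and AC values are those that chose the probe sets.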

How the data were processed

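Gene expression was measured in dorsal hippocampus of single rats on 23 arrays, 6 LT, 5 AC, 6 ST and 6 YC, grouped by the titles in the sample labels. The authors deposited RMA signal intensities, 1 for each probe set and array, unlogged and rounded, and the labels also name Partek. Of 29211 probe sets, 15307 carry 1 symbol in the platform annotation, 323 several and 13581 none, and 23559 passed the signal minimum. Mean intensities per array were 439.9 to 445.1 over the series. Of 758 blank values none is in AC, and the blanks were left missing. Blanks in LT numbered 255. Precision is limited by how many arrays a group has.

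Log2 signals were fitted with limma 3.58.1 in R 4.3.3, with a mean for each of the 4 groups and empirical Bayes moderation, and p values were adjusted by Benjamini-Hochberg over the 13339 probe sets tested, at 0.05. The fit was tested on simulated data. RNA integrity numbers were compared by an exact permutation test (scipy 1.17.1). A symbol with several probe sets (469 symbols) is represented by the brightest. Gene lists are described by counts and medians, with no test.

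Genes are named where they passed, where they came next by p up to 15 in each direction, where they had the 5 largest fold changes in each direction, where they are in the lists built around the genes that passed, or where they are among the first members of the 41 lists by p. The members, the lists and this rule were chosen with earlier results of these data known. The runs of signals printed for other genes were picked after their values were seen. Alternatives planned were leaving out each array, other scalings, filters, weights and covariates, a block for the replicate number, LT and AC alone and the methods' analysis of variance. Those added after seeing the data were leaving out AC replicates 3 and 4, and repeating the test of unnamed probe sets without single arrays, without the choroid plexus arrays and with array medians made equal. For RMA and Partek the version is not given in the sources used here.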

Additional observations from a re-analysis of the deposited data

Results flagged for a closer look

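Hrh1 differed between LT and ST, each against the same AC arrays, by 0.39 on the log2 scale in limma's test of LT minus ST (adjusted p = 2.8e-05), LT lying above ST on every array. Signals outside the tested genes came from probe sets with no symbol, of which 75 were higher and 7 lower in LT than in AC.

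Single arrays stood far from the rest of their group in 9 of 98 group and gene combinations examined, where chance gives about 1 in 20. LT replicate 1 read 798 for Hrh1 against 724 to 750 on the other LT arrays, and LT replicate 3 read 278 for Nts against 441 to 515. Among AC arrays, replicate 2 read 53 for Bcl2l15 (others 68 to 72), replicate 3 read 331 for Jchain (34 to 116), replicate 4 read 316 for Cspp1 (226 to 240) and replicate 5 read 349 for Abcb6 (308 to 319). ST replicate 4 read 119 for Erbb2 (126 to 130) and 105 for Krt9 (123 to 133), and YC replicate 6 read 166 for Krt9 (147 to 152).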

How the results depend on the processing

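The Fkbp1b difference stayed between 1.26 and 1.36 without single arrays and past the threshold under each alternative run. The number of genes that passed in LT vs AC ranged from 2 to 104 without single arrays. It was 4 by the methods' analysis of variance with Fisher's LSD after adjustment, 3 with the compared groups only, 5 with no signal filter, 23 at a minimum of 100, 118 with all probe sets, 5 with a variance trend, 44 with the choroid plexus score as a covariate, 3 with the 4 choroid plexus arrays left out, 5 without AC replicates 3 and 4, and 1683 with unadjusted p values. Scaling moved the split from 7 higher and 3 lower to 14 and 14 with array medians made equal (28 in all) and to 3 and 3 with quantile normalization (6 in all). The cause of these shifts was not tested.

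For LT vs ST the 1 gene, Hrh1, became 1 to 7 without single arrays, 22 with array weights, 113 with all probe sets, 1654 with unadjusted p values, 3 with the choroid plexus arrays left out, and 2 with the methods' analysis of variance, the compared groups only, a minimum of 100, equal medians, the RNA integrity number or the choroid plexus score. Probe sets with no symbol numbered 23 to 203 without single arrays, 8 with the choroid plexus arrays left out, 38 without AC replicates 3 and 4 and 53 with equal medians. Hbb turned to 0.047 without the choroid plexus arrays and to 0.051 without AC replicates 3 and 4, where Hbb-b1 was 0.016. The RNA integrity difference ranged from -0.267 to -0.042.

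Replicate numbers were not used to pair LT with AC rats in the fit reported above. Same-numbered arrays correlated in their deviations from the group means at 0.199, -0.253, -0.193, -0.378 and -0.186. No differently numbered pairs were set beside these, so they do not settle whether the numbers pair rats. With the replicate number as a block 3 genes passed.

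Limits. LT and AC differ in transgene, titer and, by the labels, exposure time, and 5 AC arrays include 2 with high choroid plexus and hemoglobin signals and 1 with high microglial signal. How far low signals, such as those of Lcn1 and Lcn9, lie above the background of the array was not tested.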

Other observations

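Of the 75 probe sets with no symbol that were higher in LT than in AC, 11 carry numbers from 10722303 to 10722481. The range was drawn around these 11 after the values were seen. In that range 62 probe sets with no symbol were tested, the 11 included, 60 of them above AC, with a median log2 fold change of 0.14, and 4 with a symbol. Because the range was set by the same LT and AC values, these counts are no independent evidence.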
